A study of Mus musculus with 2 samples.

Results

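The genes described here are the 10 G1 cyclin, kinase, E2F and retinoblastoma genes Ccnd1, Ccnd2, Ccnd3, Ccne1, Ccne2, Cdk4, Cdk6, Cdk2, E2f1 and Rb1, out of 31053 genes listed for each library. They were picked out by symbol, with earlier results of these data known. Their transcripts were counted by single-cell RNA sequencing in cultured primary pericytes (PCs), the mural cells of brain capillaries. There was 1 library of PCs at passage 5 (PC5) and 1 at passage 20 (PC20). Each culture came from the pooled brains of 6 female wild type C57BL/6N mice aged 6 to 8 weeks, and no gene was altered and no agent was compared. By the study's methods the passages came from separate isolations, so passage and isolation cannot be told apart.

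A UMI is a molecular tag that lets each captured transcript be counted once. Kept were cells in which over 1000 genes had a UMI and mitochondrial genes gave less than 20% of UMIs, which left 9950 PC5 cells with a median of 21700 UMIs and 4749 PC20 cells with a median of 33424. Of the cell barcodes, 20 occurred in both libraries. Levels are the gene's UMIs per 1000000 UMIs (CPM), summed over the cells of a library or group. The kit counts a molecule once near its 3′ end whatever its length, so levels of different genes were set side by side per molecule counted. Cells were split by whether they held a UMI of Mki67 or Top2a, which are 2 genes transcribed in dividing cells. Such a marker UMI was present in 45.0% of PC5 cells (4475 of 9950) and in 72.2% of PC20 cells (3428 of 4749). The split follows depth as well, since the median was 19195 UMIs in PC5 cells without and 25567 in those with a marker UMI, and 26024 and 37657.5 in PC20. Intervals in brackets are exact 95% intervals. They cover counting error only, and with 1 library for each passage no test was run.

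The labelled cell type was checked against its markers. Of 7 pericyte markers, only Pdgfrb and Cspg4 reached 10% of cells in either library. Pdgfrb, the receptor for PDGF-B, stood at 44.6 CPM in PC5, against 5.43 in PC20, while Anpep had more UMIs in PC20 (573, against 431 in PC5), Abcc9 had 1 UMI in each library and Rgs5, Kcnj8 and Vtn had 0 UMIs in PC20. Markers of other mural and stromal cells also differed. The 4 fibroblast markers summed to 1302 CPM in PC5 and 101 CPM in PC20, the 4 smooth muscle markers to 283 and 49.6 CPM, the 3 endothelial markers, nearly all Flt1, to 18.2 and 74.0 CPM, and the 3 astrocyte markers to 151 and 229 CPM. The last sum is mostly Slc4a4, and the other 2, Aldh1l1 and Aqp4, were higher in PC5 (7.35 against 0.0262 CPM and 0.126 against 0.00523 CPM). Pecam1, an endothelial marker, was also higher in PC5 (0.542 against 0.110 CPM). Cldn5, the remaining endothelial marker, had 14 UMIs in PC5 and 8 in PC20. The fibroblast marker Lum had 0 UMIs in PC20. The part of these differences in the results below was not tested.

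D-type cyclins are made when growth signals arrive, and they bind the kinases CDK4 and CDK6. The complex phosphorylates the retinoblastoma protein RB1, which otherwise holds back E2F transcription factors. Released E2F factors switch on genes for DNA replication, among them the E-type cyclins, whose partner kinase CDK2 drives cells into S phase. Cells in culture pass through this switch at each division, and CDK inhibitors such as those of the Cdkn2a and Cdkn2b genes act against it.

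Expressed genes were those seen in 10% or more of the cells in one library or the other. All 10 genes were expressed by this measure, and 9 of the 10 reached 10% in both libraries. The exception was Ccne1, which was seen in 6.15% of PC20 cells. Between passages, 5 of the 10 were 2-fold or more higher in PC5 (Ccnd2, Ccnd3, Ccne1, Ccne2 and Cdk2), where 17.9% of the 10504 expressed genes were. Cdk6 alone of the 10 was 2-fold or more higher in PC20, where 19.1% of expressed genes were. The median log2 ratio of PC5 over PC20 was 1.18 over the 10 genes and -0.03 over all expressed genes. As the 10 genes were chosen with earlier results of these data known, these values describe them and test nothing. Genes of the later cycle were counted for comparison. Over all cells, of 29 expressed S phase genes such as Mcm2 and Pcna, 13 were 2-fold or more higher in PC20 and 0 in PC5, and of 24 genes of G2 and mitosis 14 were higher in PC20 and 0 in PC5. In cells without a marker UMI, 9 S phase genes were 2-fold or more higher in PC20 and 2 in PC5, and 3 G2 and mitosis genes in PC20 and 9 in PC5. Of all expressed genes in such cells, 19.2% were 2-fold or more higher in PC20 and 18.6% in PC5. The marker genes themselves were lower in PC5, with Mki67 at 28.6 CPM in PC5 and 162 in PC20, and Top2a at 95.7 and 249 CPM. The groups without a marker UMI may therefore hold unlike shares of dividing cells in the libraries, which was not tested.

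**Figure D1:**
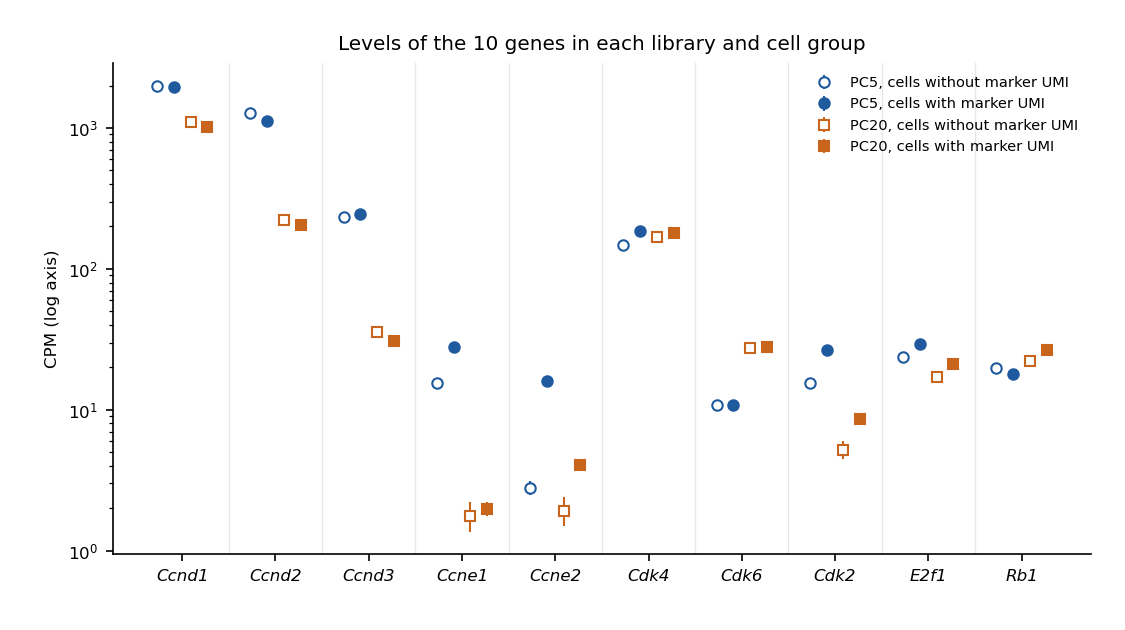
Levels of the 10 genes in CPM on a log axis, in PC5 (circles) and PC20 (squares), for cells without (open) and with (filled) a Mki67 or Top2a UMI. Bars are exact 95% Poisson intervals and are often smaller than the symbols. Ccnd2, Ccnd3, Ccne1 and Cdk2 lie 2-fold or more above their PC20 levels in both cell groups, and Cdk6 lies 2-fold or more below.

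Among the D cyclins, Ccnd1 (chr7:144929931-144939925, GRCm38, minus strand) was the most abundant of the 10 genes in both libraries. It stood at 1982 CPM in PC5 [1977 to 1988] against 1033 CPM in PC20 [1028 to 1038], a 1.92-fold difference that stayed just under 2-fold. Per cell, counted as UMIs, the libraries were nearly level, with 44.4 Ccnd1 UMIs in PC5 and 41.6 in PC20, and PC20 cells held more UMIs of all genes. Nearly every cell held a Ccnd1 UMI (99.6% in PC5 and 99.2% in PC20). Cells were also thinned at random to 10500 UMIs each, leaving out 1103 shallower PC5 cells and 275 PC20 cells. At that equal depth the median cell had 19 Ccnd1 UMIs in PC5 and 9 in PC20, and 9.41% of PC20 cells [8.57 to 10.3] lay above the PC5 median, beside 48.0% of PC5 cells. The distributions overlapped. The cells with and without a marker UMI had nearly the same Ccnd1 level, 1967 and 1999 CPM in PC5 and 1015 and 1107 CPM in PC20. The log2 ratios of this split, -0.02 and -0.12, turned to 0.12 and 0.28 when it also used the G2/M genes. In PC5 the sign also turned when CPM was averaged cell by cell. The log2 ratio between passages in cells without a marker UMI was 0.85 and passed 2-fold, at 1.11, when the split also used the G2/M genes.

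Ccnd2 (chr6:127125162-127152193, minus strand) stood further apart. Its level was 1197 CPM in PC5 and 208 CPM in PC20, 5.75-fold apart, with a log2 ratio of 2.52 [2.51 to 2.54]. A Ccnd2 UMI was found in 99.5% of cells in PC5 and 93.7% in PC20, and in 99.8% and 81.2% at equal depth. Most cells of both libraries thus held this transcript, in different amounts. At the equal depth the median was 12 UMIs in PC5 and 2 in PC20, and 6 of 4474 PC20 cells, 0.134%, lay above the PC5 median. Ccnd2 was lower in cells with a marker UMI than in cells without one in both libraries, at 1121 against 1280 CPM in PC5 and 204 against 223 CPM in PC20.

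Ccnd3 (chr17:47505051-47599691, plus strand) was the least abundant D cyclin and had the largest ratio of the 3. It stood at 240 CPM in PC5, against 31.5 in PC20, 7.62-fold apart, with a log2 ratio of 2.93 [2.89 to 2.97]. A Ccnd3 UMI was seen in 93.5% of cells in PC5 and 60.1% in PC20, and in 89.3% and 27.2% at equal depth. At that depth 40 of 4474 PC20 cells (0.894%) lay above the PC5 median of 2 UMIs. The ratio was 2.72 [2.64 to 2.80] in cells without a marker UMI and 3.01 [2.96 to 3.05] in cells with one. Within a library Ccnd3 lay on opposite sides of 0, with a log2 ratio of cells with over without a marker UMI of 0.06 [0.04 to 0.09] in PC5 and -0.22 [-0.31 to -0.13] in PC20. The PC5 value was close to the median of all expressed genes in that split, 0.06, and was 0.0064 when centred on it.

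The D cyclins differed in makeup as well as in amount. In PC5, Ccnd1 gave 58.0% of D cyclin UMIs, Ccnd2 35.0% and Ccnd3 7.02%. In PC20 the shares were 81.2%, 16.3% and 2.48%. These shares do not depend on how the libraries are scaled. Within a library they hardly moved with the marker split, since Ccnd1 had 56.9% in PC5 cells without a marker UMI and 59.0% in those with one, and 81.0% and 81.2% in PC20. Cell by cell at the equal depth, 77.5% of PC5 cells held more Ccnd1 than Ccnd2 UMIs and 18.8% held more Ccnd2, against 94.1% and 3.08% in PC20. The 3 genes together came to 3420 CPM in PC5 and 1273 CPM in PC20, and to 76.7 and 51.2 UMIs per cell.

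**Figure D2:**
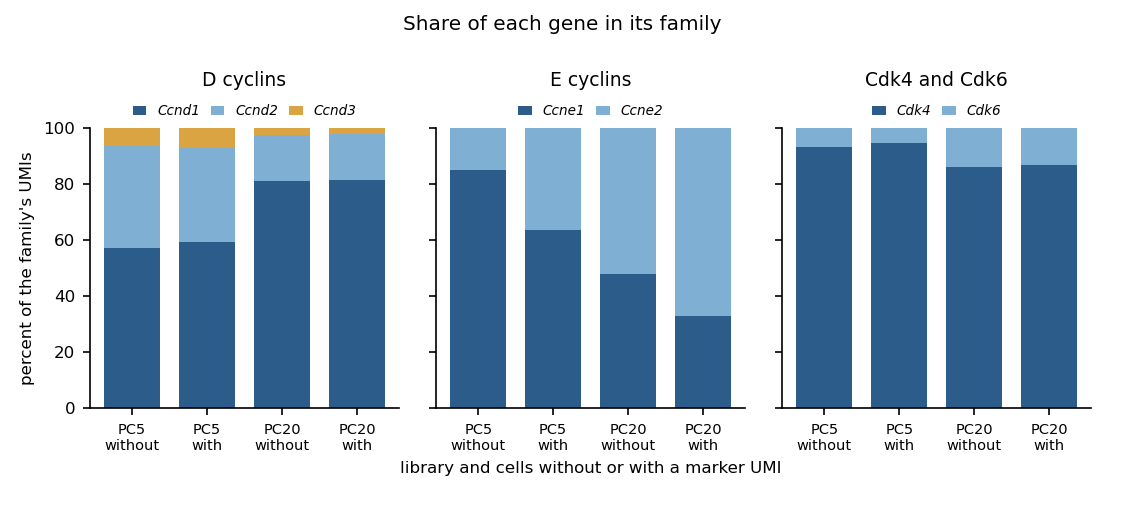
Percent of the UMIs of the D cyclins, of the E cyclins and of Cdk4 with Cdk6 that each gene gave, in PC5 and PC20 cells without and with a marker UMI. Ccnd1 and Cdk6 take a larger share in PC20 (81.2% and 13.6% over all cells, against 58.0% and 6.07% in PC5), and Ccne1 a smaller one (34.8% against 69.4%).

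The E cyclins were scarce. Ccne1 had the largest ratio of the 10 genes, 22.0 CPM in PC5 [21.4 to 22.7] against 1.94 CPM in PC20 [1.74 to 2.14], 11.4-fold apart with a log2 ratio of 3.51 [3.36 to 3.66]. The PC20 level rests on 370 UMIs in 292 cells. A Ccne1 UMI was seen in 30.7% of cells in PC5 and 6.15% in PC20, and in 17.5% and 2.03% at equal depth. As a measure of background, 10 genes of neurons, microglia, blood and oligodendrocytes were read in the same cells, and at equal depth the highest of them, Cx3cr1, was seen in 2.46% of cells in PC5 and 0.380% in PC20. Ccne1 lay above that level in both libraries. In PC5 Ccne1 was higher in cells with a marker UMI, at 27.9 against 15.6 CPM, a log2 ratio of 0.84 [0.75 to 0.92]. In PC20 the log2 ratio was 0.18 [-0.21 to 0.58], so a difference was not detectable at this depth, and its sign turned when the split also used the G2/M genes.

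The window around the RefSeq start of Ccne1 is shown because this gene differed most between the libraries. RefSeq promoters, which run from 250 bases before to 50 bases after a start, were given for 6 of the 10 genes (Ccnd3 with 2 entries, Ccne1, Cdk4, Cdk6, Cdk2 and E2f1). The gene lies on chromosome 7 at 38097984 to 38107534, minus strand, and the window covers chr7:38107441-38107740 (GRCm38.p6, minus strand). Capitals mark matches to the GC box GGGCGG on either strand.
Ccne1: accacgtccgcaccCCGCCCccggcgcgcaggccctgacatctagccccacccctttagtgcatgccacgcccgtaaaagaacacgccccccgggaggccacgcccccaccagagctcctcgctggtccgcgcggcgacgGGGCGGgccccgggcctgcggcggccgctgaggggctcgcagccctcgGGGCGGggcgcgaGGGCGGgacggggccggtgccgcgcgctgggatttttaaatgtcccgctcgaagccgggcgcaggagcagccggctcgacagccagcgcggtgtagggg
This window holds 4 GC boxes, which are present at least once in 35.7% of 32851 mouse promoters of this length. It is 76.0% G and C with 41 CG pairs. It holds 0 matches to the E2F-type letters TTTCCCGC, TTTCGCGC, TTTGCCGC or TTTGGCGC on either strand, which 2.26% of promoters hold. A match is a description of letters only.

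Ccne2 (chr4:11191351-11204779, plus strand) had the largest ratio of the 10 genes in the marker split of each library, except in PC20 when the split also used the G2/M genes. Over all cells it stood at 9.70 CPM in PC5 [9.30 to 10.1] against 3.63 CPM in PC20 [3.36 to 3.91], 2.68-fold apart. In PC5 it was 16.1 CPM in cells with a marker UMI and 2.78 CPM in cells without, 5.78-fold apart, with a log2 ratio of 2.53 [2.35 to 2.71] that was 1.32 when the split used Mki67 alone. In PC20 it was 4.05 and 1.91 CPM, 2.12-fold apart, with a log2 ratio of 1.08 [0.73 to 1.45]. Ccne2 was the 1 gene of the 10 at 2-fold or more in this split in each library (in PC20 0 of 10 were when the split used Mki67 alone, and Cdk2, at 1.20, took the place of Ccne2, at 0.80, when it also used the G2/M genes), where 3.47% of expressed genes were higher with a marker UMI in PC5 and 3.77% in PC20. Of the 10 genes 0 were 2-fold or more higher without a marker UMI, beside 0.439% of expressed genes in PC5 and 0.45% in PC20.

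The Ccne2 difference between passages depended on which cells were compared. The log2 ratio of PC5 over PC20 was 1.99 [1.86 to 2.12] in cells with a marker UMI and 0.54 [0.16 to 0.93] in cells without. The second value was not stable: it was -0.67 when the split also used the G2/M genes and up to 1.56 under the other ways of splitting. At equal depth 2.38% of PC5 cells without a marker UMI held a Ccne2 UMI, which is not above the 2.46% of the background gene Cx3cr1 in that library. By this measure the Ccne2 level in those cells, on which the 5.78-fold split in PC5 rests, was not set apart from background. Cx3cr1 was read over all PC5 cells, at 3.52 CPM, and is not a floor for Ccne2. In the lowest of 5 PC5 groups ranked by S phase genes (below), Ccne2 stood at 0.741 CPM. Cx3cr1 is the highest of the 10 background genes, and the next in PC5, Csf1r, was seen in 0.554% of cells at equal depth. Of PC20 cells without a marker UMI 2.32% held a Ccne2 UMI, above the 0.380% of Cx3cr1 in that library. In cells with a marker UMI the shares were 11.9% and 4.50%.

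The balance between the E cyclins differed too. Ccne1 gave 69.4% [68.3 to 70.5] of E cyclin UMIs in PC5 and 34.8% [31.9 to 37.8] in PC20. Cells with a UMI of one E cyclin were also read for the other. At equal depth, 42.6% of the 610 PC5 cells with a Ccne2 UMI held a Ccne1 UMI, against 15.6% of those without. Among PC20 cells the values were 5.14% [2.38 to 9.54] and 1.91% [1.52 to 2.36], from 9 and 82 cells. A Ccne2 UMI was likewise seen in 10.9% of PC5 cells with an E2f1 UMI and 5.67% of those without, and in 6.60% and 3.30% of PC20 cells. Among cells with a marker UMI these shares were 18.0% and 9.87% in PC5 and 8.13% and 3.64% in PC20. Among cells without one they were 3.48% and 2.08% in PC5. In such PC20 cells they lay the other way within counting error, 1.94% [0.53 to 4.90], from 4 cells, and 2.40% [1.54 to 3.54].

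Of the kinases of the D cyclins, Cdk4 was nearly level between passages and Cdk6 was not. Cdk4 stood at 167 CPM in PC5 [165 to 169] against 178 CPM in PC20 [176 to 180], a log2 ratio of -0.09. Its ratio was -0.19 [-0.23 to -0.14] in cells without a marker UMI and 0.03 [0.01 to 0.06] in cells with one, where the sign turned when CPM was averaged cell by cell or the split also used the G2/M genes. As UMIs per cell Cdk4 was 3.75 in PC5 and 7.17 in PC20. At equal depth 79.5% and 82.3% of cells held a Cdk4 UMI.

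Cdk6 (chr5:3341485-3531008, plus strand), the other kinase of the D cyclins, stood at 10.8 CPM in PC5 [10.4 to 11.2] against 27.9 CPM in PC20 [27.2 to 28.7], 2.58-fold higher in PC20 with a log2 ratio of -1.37 [-1.44 to -1.30]. A Cdk6 UMI was found in 17.9% of cells in PC5 and 55.0% in PC20, and in 9.98% and 24.3% at equal depth. Its level did not move with the marker split beyond counting error, at 10.9 and 10.8 CPM in PC5 cells without and with a marker UMI and 27.6 and 28.0 CPM in PC20 cells. Cdk6 gave 6.07% [5.84 to 6.31] of the UMIs of the pair in PC5 and 13.6% [13.2 to 13.9] in PC20. The pair summed to 178 CPM in PC5 and 206 CPM in PC20.

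Cdk2, the kinase of the E cyclins, stood at 21.2 CPM in PC5 [20.6 to 21.8] against 7.94 CPM in PC20 [7.55 to 8.35], 2.67-fold apart with a log2 ratio of 1.41. The ratio was 1.56 in cells without and 1.62 in cells with a marker UMI. A Cdk2 UMI was seen in 18.9% of cells in PC5 and 7.69% in PC20 at equal depth. Cells with a marker UMI had more of it in both libraries, 26.5 against 15.4 CPM in PC5 and 8.61 against 5.21 CPM in PC20, which are log2 ratios of 0.78 [0.70 to 0.87] and 0.73 [0.51 to 0.95].

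The windows of Cdk4 and Cdk2 are shown next because both genes were higher in cells with a marker UMI in both libraries. Both genes lie on chromosome 10. The Cdk4 gene spans 127063534 to 127067920 on the plus strand and its window covers chr10:127063285-127063584. The Cdk2 gene spans 128697939 to 128705031 on the minus strand and its window covers chr10:128705002-128705301 (RefSeq, GRCm38.p6). Capitals mark the E-box CACGTG, the GC box GGGCGG on either strand and the E2F-type letters given for Ccne1.
Cdk4: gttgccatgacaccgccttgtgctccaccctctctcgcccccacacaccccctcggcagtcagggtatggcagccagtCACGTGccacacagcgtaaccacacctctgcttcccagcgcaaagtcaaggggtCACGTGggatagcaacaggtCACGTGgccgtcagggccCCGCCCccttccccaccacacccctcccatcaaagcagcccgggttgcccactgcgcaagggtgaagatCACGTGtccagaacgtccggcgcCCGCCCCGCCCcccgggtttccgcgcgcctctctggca
Cdk2: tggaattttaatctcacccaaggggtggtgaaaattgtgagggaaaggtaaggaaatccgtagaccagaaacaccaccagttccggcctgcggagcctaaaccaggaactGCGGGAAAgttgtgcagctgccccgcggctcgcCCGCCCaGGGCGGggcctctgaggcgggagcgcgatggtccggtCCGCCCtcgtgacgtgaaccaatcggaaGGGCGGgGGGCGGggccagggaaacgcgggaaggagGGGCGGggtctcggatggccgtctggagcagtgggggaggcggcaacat
The Cdk4 window holds 4 copies of the E-box, which reads the same on both strands and occurs in 7.15% of promoters, and 3 GC boxes, of which the last 2 overlap by 1 base. The Cdk2 window holds 6 GC boxes and 1 E2F-type match, GCGGGAAA on the strand shown, which starts 140 bases before the RefSeq start. The windows of Ccnd3, Cdk6 and E2f1 held 0 E2F-type matches. The E2f1 window, chr2:154569377-154569676, lies wholly inside the annotated gene, which ends at 154569892, so it is not printed. The Cdk6 window (chr5:3343643-3343942) and the second Ccnd3 window (chr17:47593217-47593516) likewise lie wholly inside their annotated genes. The RefSeq start of Ccne1 also lies inside its annotated gene, but the Ccne1 window reaches past the upstream edge of that gene.

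E2f1 (chr2:154559407-154569892, minus strand), a transcription factor that RB1 restrains, stood at 26.5 CPM in PC5 [25.9 to 27.2] against 20.3 CPM in PC20 [19.6 to 20.9], 1.31-fold apart. The direction depends on the scale, since UMIs per cell were 0.595 in PC5 and 0.816 in PC20. A UMI was seen in 40.1% and 45.9% of cells at full depth and in 23.3% and 18.6% at equal depth. E2f1 was 1.22-fold higher in PC5 cells with a marker UMI and 1.23-fold higher in such PC20 cells. The PC20 ratio turned below 0 when the split also used the G2/M genes.

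Rb1 (chr14:73183673-73325822, minus strand), which encodes the restraining pocket protein, stood at 18.9 CPM in PC5 [18.3 to 19.5] against 25.8 CPM in PC20 [25.1 to 26.6], 1.37-fold higher in PC20. It went opposite ways in the marker split. In PC5 it was 18.1 CPM in cells with and 19.8 CPM in cells without a marker UMI, a log2 ratio of -0.13 [-0.22 to -0.04]. In PC20 it was 26.8 and 22.0 CPM, a log2 ratio of 0.28 [0.17 to 0.39]. The distance between passages was accordingly wider in cells with a marker UMI (-0.57) than in cells without (-0.15), and this difference was not tested.

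Counted within the marker groups, the comparison of passages was as follows. In cells without a marker UMI 4 of the 10 genes were 2-fold or more higher in PC5, where 18.6% of expressed genes were, and 1 was higher in PC20, where 19.2% were. In cells with a marker UMI 5 were higher in PC5, where 18.3% of expressed genes were, and 1 in PC20, where 17.4% were. The count in cells without a marker UMI was 5 as well when the split used Mki67 alone, was made after thinning or also used the G2/M genes. The fifth gene was Ccne2 with the first 2 of these and Ccnd1 with the G2/M genes. In PC5 cells without a marker UMI by the main split, Ccne2 was not set apart from background by the Cx3cr1 measure. The median log2 ratio of the 10 genes was 0.70 in cells without and 1.29 in cells with a marker UMI, but 1.20 and 1.31 with Mki67 alone.

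**Figure D3:**
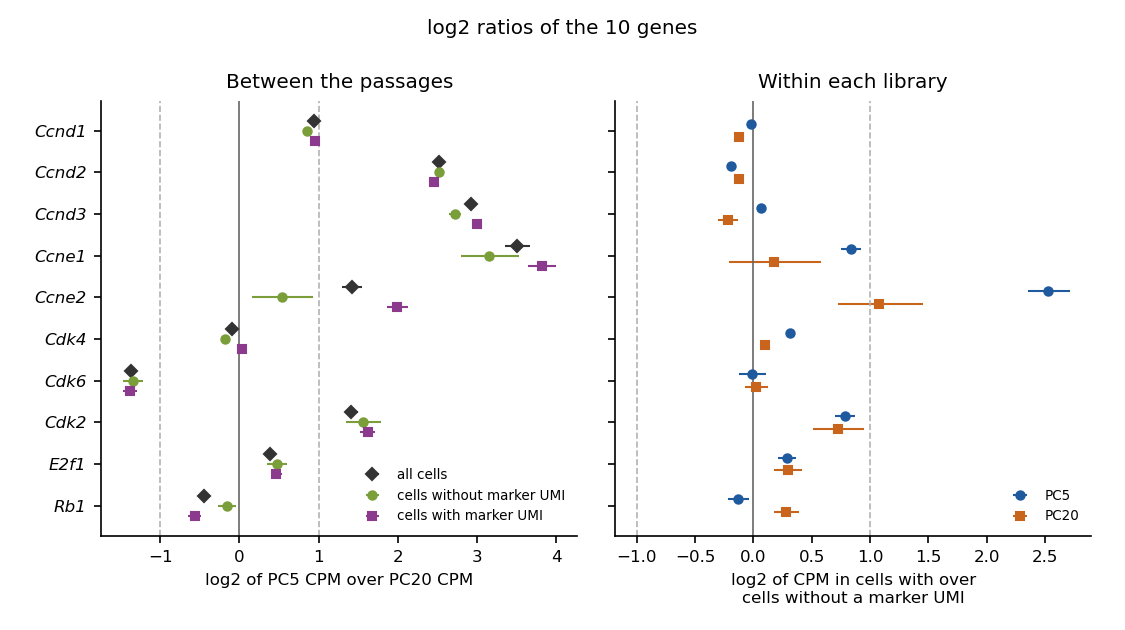
log2 ratios of the 10 genes between PC5 and PC20 (left, for all cells and for cells without and with a marker UMI) and between cells with and without a marker UMI in each library (right). Bars are exact 95% counting intervals and dashed lines mark 2-fold. Ccne2 lies farthest to the right in the split, at 2.53 in PC5 and at 1.08 in PC20. In PC5 its level in cells without a marker UMI is not above that of Cx3cr1, the highest background gene. Rb1 and Ccnd3 lie on opposite sides of 0 in the libraries, with Ccnd3 at 0.06 in PC5.

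To follow the genes through the cycle without Mki67 and Top2a, the cells of each library were ranked by the summed level of 30 S phase genes and cut into 5 equal groups. None of the 10 genes was in that list. Groups of the same number covered unlike list levels in the libraries. The lowest held 0 to 110 CPM in PC5 and 0 to 281 CPM in PC20, and the highest 686 to 3940 and 1373 to 5529 CPM. Of the 10, 3 were 2-fold or more higher in the highest than in the lowest group in PC5 (Ccne1, Ccne2 and Cdk2), where 7.16% of expressed genes were, and 4 in PC20 (with E2f1), where 5.86% were. After thinning E2f1 passed in PC5 too, at 1.03, so that the count was 4 in both. Of the 10 genes 0 were 2-fold higher in the lowest group, where 1.78% of expressed genes were in PC5 and 3.21% in PC20.

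Ccne2 spanned the widest range. In PC5 it stood at 0.741, 1.21, 1.95, 5.17 and 34.4 CPM from the lowest to the highest group, a log2 ratio of 5.54, and in PC20 at 1.30, 1.68, 2.33, 3.42 and 9.33 CPM, for which the log2 ratio is 2.84. In both libraries the last step was the largest. In the 3 lowest groups Ccne2 was lower in PC5 than in PC20, unlike over all cells, with overlapping intervals. The 3 lowest PC5 groups also lay below the 3.52 CPM of Cx3cr1 over all PC5 cells, which is not a floor for Ccne2. Ccne1 stood at 10.1 CPM in the lowest and 47.3 CPM in the highest PC5 group, and at 1.00 and 4.23 CPM in PC20, so PC5 lay above PC20 in every group. Cdk2 stood at 12.4 and 38.6 CPM in PC5 and at 4.46 and 14.0 CPM in PC20. E2f1 stood at 21.1 and 41.7 CPM in PC5 and at 13.6 and 35.1 CPM in PC20. For E2f1 too the last step was the largest, from 23.9 to 41.7 CPM in PC5 and from 19.0 to 35.1 CPM in PC20.

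The other genes varied less, and their values are again at full depth. Cdk4 was higher at each step, although not from the second to the third group of PC20 after thinning, from 134 to 205 CPM in PC5 and from 151 to 229 CPM in PC20. Ccnd1 stayed between 1893 and 2049 CPM in PC5 and between 960 and 1110 CPM in PC20. Ccnd2 was lower at each step in PC5, from 1325 to 1086 CPM. Ccnd3 was higher at each step in PC5, from 225 to 255 CPM, but in PC20 it stood at 38.7 CPM in the lowest and 29.5 CPM in the highest group. Cdk6 stood at 9.63 and 12.1 CPM in the lowest and highest PC5 groups and at 25.5 and 30.8 CPM in those of PC20. Rb1 was lowest in the fourth group of PC5 (15.7 CPM) and stood at 30.7 CPM in the fifth group of PC20. The share of cells with a marker UMI moved along with these groups, from 14.6% to 85.5% in PC5 and from 40.0% to 95.9% in PC20.

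**Figure D4:**
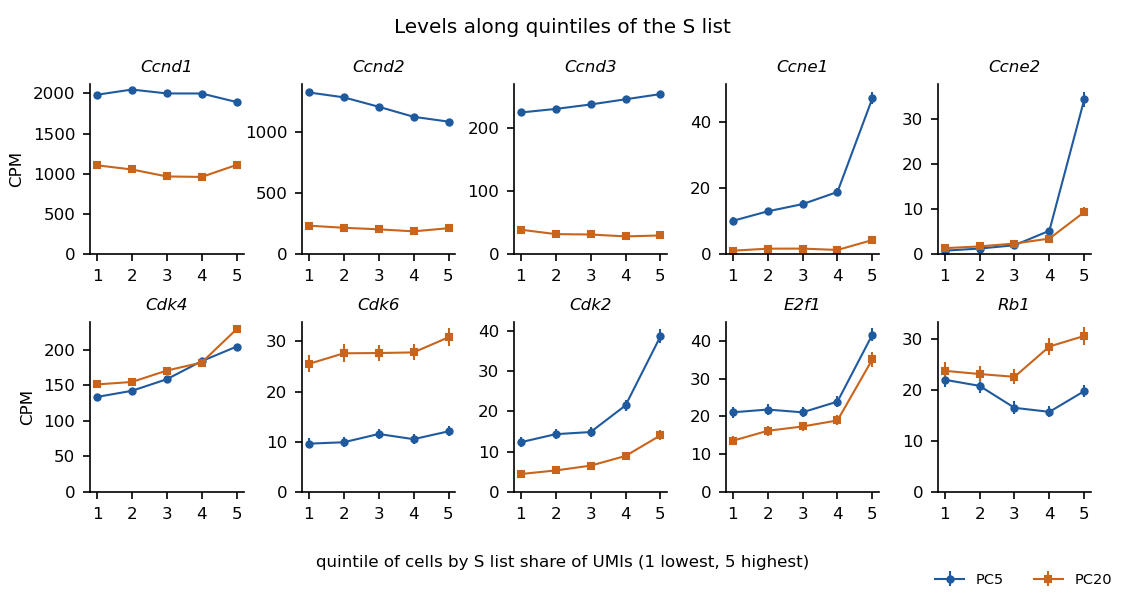
CPM of each gene in 5 equal groups of cells, ranked from the lowest (1) to the highest (5) summed level of the S phase genes, in PC5 (circles) and PC20 (squares). Bars are exact 95% Poisson intervals and each panel has its own axis from 0. Ccne2 in PC5 goes from 0.741 to 34.4 CPM, mostly at the last step, while Ccnd1 stays between 1893 and 2049 CPM. The lowest Ccne2 values in PC5 lie below the 3.52 CPM of the background gene Cx3cr1 over all PC5 cells.

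Ranking the cells by 24 genes of G2 and mitosis instead gave another shape. Here too the list levels of a group were unlike, in the top group 1322 to 8448 CPM in PC5 and 2655 to 19517 CPM in PC20. The E cyclins and E2f1 were highest in the third or the fourth group and not in the top one. Ccne2 reached 22.8 CPM in the fourth PC5 group and was 7.81 CPM in the fifth, and in PC20 it reached 5.42 CPM in the third group and was 2.38 CPM in the fifth. Ccne1 reached 33.6 CPM in the fourth PC5 group and 3.22 CPM in the third PC20 group, with 19.9 and 0.832 CPM in the fifth. E2f1 reached 32.3 and 27.9 CPM in those groups and was 23.3 and 13.2 CPM in the fifth. Cdk2 and Cdk4 in contrast were highest in the top group of PC5, at 28.0 and 199 CPM, and in PC20 they were highest in the fourth and the third group, at 9.88 and 197 CPM. Ccnd2 was lower in the top than in the bottom group in both libraries, at 988 against 1332 CPM in PC5 and 177 against 253 CPM in PC20.

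From the bottom to the top group of this ranking, 2 of the 10 genes were 2-fold or more higher in PC5 (Ccne2 and Cdk2, or 1, Ccne2, when cells were ranked after thinning), where 6.2% of expressed genes were, and 0 in PC20, where 5.08% were. In the other direction 0 were 2-fold higher in the bottom group of PC5, where 2.29% were, and 1 in PC20 (Ccne1), where 3.69% were. Ccne2 stood at 1.63 CPM in the bottom PC5 group, below the 3.52 CPM of Cx3cr1 over all PC5 cells.

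**Figure D5:**
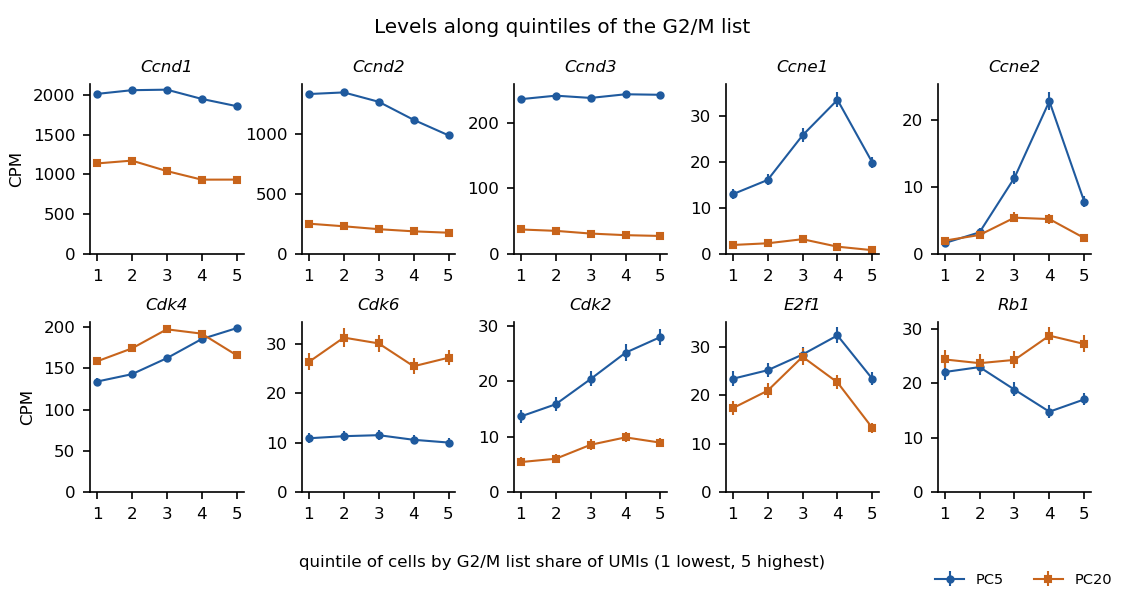
CPM of each gene in 5 equal groups of cells, ranked from the lowest (1) to the highest (5) summed level of the G2 and mitosis genes, in PC5 (circles) and PC20 (squares), with exact 95% Poisson intervals. Ccne1, Ccne2 and E2f1 are highest in the third or the fourth group and lower in the fifth (Ccne2 in PC5, 22.8 and 7.81 CPM), while Cdk4 in PC5 is highest in the fifth at 199 CPM.

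Genes with a similar pattern were looked up for the 4 genes that moved most along these groups. Cells of each library and marker group were cut into 3 parts by the S phase genes, which gave 12 groups, and Pearson's r of each gene was taken over them on a log2(CPM + 1) scale, centred within library, among 8351 genes. Cdk2 was closest to Orc6 (0.99), Tfdp1 (0.99) and Eri1 (0.99), where Orc6 encodes a subunit of the origin recognition complex and Tfdp1 the partner protein of E2F factors. Ccne2 was closest to Ivns1abp (0.99), Siah2 (0.98) and Rpa1 (0.98), the last a single-stranded DNA binding protein of replication. Ccne1 was closest to Msh3 (0.99), Trmt2a (0.96) and Mrpl40 (0.96), and E2f1 to Meaf6 (0.95), Sumo3 (0.94) and Paics (0.94). The 12 groups share libraries and depth, and these are the highest of 8351 values, picked for being so.

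The other genes of the pathway gave a background for the 10. Of 45 listed genes 43 were expressed, of which 6 were 2-fold or more higher in PC5, beside 17.9% of all expressed genes, and 12 in PC20, beside 19.1%. The counts by group that follow stand against the same shares. These counts are over all cells, of which 45.0% in PC5 and 72.2% in PC20 held a marker UMI. Within PC5, 12 of the 43 were 2-fold or more higher in cells with than in cells without a marker UMI, beside 3.47% of expressed genes, and within PC20 14 were, beside 3.77%. None was 2-fold lower in such cells of either library.

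Among the CDK inhibitors, Cdkn2a and Cdkn2b, which belong to the INK4 family that binds CDK4 and CDK6, were far higher in PC5. Of 7 expressed inhibitor genes 2 were 2-fold or more higher in PC5 and 2 in PC20. Cdkn2a, whose locus also encodes ARF, had 124034 UMIs in PC5, 556 CPM, and 1 UMI in PC20, a log2 ratio of 16.70 [14.22 to 22.00]. Cdkn2b had 15615 UMIs in PC5 and 0 in PC20, so its log2 ratio was at least 12.12 against a floor of 3 UMIs in that library. The other INK4 genes lay the other way at under 2-fold, Cdkn2c at 17.9 and 21.5 CPM and Cdkn2d at 25.0 and 48.8 CPM. Of the inhibitors of cyclin and CDK2 complexes, Cdkn1a stood at 394 CPM in PC5, against 201 in PC20, and Cdkn1b at 23.3 and 90.3 CPM, with the log2 ratio at -1.95.

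Of the other E2F and DP factors, 3 of 8 expressed genes were 2-fold or more higher in PC5 and 1 in PC20. E2f8, a repressing E2F, stood at 44.3 and 12.6 CPM in PC5 and PC20, and E2f6, another repressing member, at 34.3 and 16.1 CPM. Tfdp2 was higher in PC20, at 11.9 and 29.4 CPM. E2f8 differed more between passages in cells without a marker UMI (log2 ratio 4.77) than in cells with one (1.87), and this difference was not tested. The first value has no interval here and rests on a low level in PC20 cells without a marker UMI. Within PC20 the E2f8 log2 ratio of cells with over without a marker UMI was 3.75, against 0.85 in PC5. The relatives of Rb1 differed less, with Rbl1 at 8.03 and 13.7 CPM and Rbl2 at 13.0 and 13.8 CPM. Of the 8 pocket protein and DREAM complex genes, 0 were 2-fold or more higher in PC5 and 2 in PC20. These were Mybl2 (3.64 and 9.59 CPM) and Lin37 (6.76 and 14.2 CPM). The log2 ratio of Mybl2 was -0.95 in cells without and -0.84 in cells with a marker UMI, under 2-fold in both. That of Lin37 was -1.04 and -1.06.

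Of the 8 later cyclins and kinases 0 were 2-fold higher in PC5 and 5 in PC20. The widest apart was Cdk1, the kinase of mitosis, at 26.0 CPM in PC5, against 98.0 in PC20. Cdc25b, a phosphatase that activates it, followed at 11.3 and 31.6 CPM, and then Mnat1, part of the CDK-activating kinase, at 30.9 and 83.2 CPM. Cdk1 had a log2 ratio of -0.99 in cells without and -1.46 in cells with a marker UMI. Those of Cdc25b were -1.43 and -0.99, and those of Mnat1 -1.55 and -1.39. In the turnover group of 9 genes, Fbxw7, which marks cyclin E protein for breakdown, was higher in PC5 at 36.7 and 13.7 CPM. Fbxo5, an inhibitor of the anaphase-promoting complex, and Cks2 were higher in PC20, at 8.87 and 34.7 CPM and at 82.1 and 174 CPM. Cks2 encodes a small protein that binds CDKs. Its log2 ratio was -0.30 in cells without and -0.73 in cells with a marker UMI, under 2-fold in both. That of Fbxo5 was -1.08 and -1.43. Of the 3 expressed upstream and chaperone genes, 0 reached 2-fold.

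Several of the 10 genes overlap another gene in the annotation, and whether strand was used in counting is not given in the sources used here. The overlapping partners on the opposite strand with the most UMIs were Tspan31 at Cdk4 (84.6 CPM in PC5 and 67.4 CPM in PC20), Oraov1 at Ccnd1 (41.8 and 21.6 CPM), Bysl at Ccnd3 (17.4 and 12.5 CPM), Rcbtb2 and Lpar6 at Rb1 (11.1 and 25.9 CPM, and 9.39 and 17.0 CPM) and Ints8 at Ccne2 (9.67 and 14.0 CPM). Ccne1 and E2f1 had 0 such partners, and the partners of Ccnd2, Cdk6 and Cdk2 were at 1.18 CPM or less in both libraries. Both opposite-strand partners of Rb1 were, like Rb1, higher in PC20, and their part in its level was not tested. The only overlap on the same strand was Gm17233 at Rb1, with 1 UMI in PC5 and 6 in PC20.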

How the data were processed

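Single-cell RNA sequencing (10x Genomics Next GEM 3′ kit v3.1) was done on 1 library of passage 5 and 1 of passage 20 pericytes. The deposited values are UMI counts per gene and cell barcode, which the authors made with Cell Ranger (5.0.1 in the file headers) on mm10, with no normalization. The annotation version and the strand setting are not given in the sources used here.

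Barcodes were kept if over 1000 genes had a UMI and mitochondrial genes gave less than 20% of UMIs. Counts were summed over cells of a library or group and divided by the group's total. The totals were 223054273 UMIs in PC5 and 191122251 in PC20. A gene was called expressed when 10% or more of the cells in one library or the other held its UMI, and 2-fold was the threshold. Ratios have exact conditional binomial intervals, levels exact Poisson intervals and shares Clopper-Pearson intervals, at 95%. UMIs count molecules, and the intervals leave out differences between cultures. With 1 library per passage no test was made. No doublet caller was run, and cells were not clustered.

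The 10 genes and all gene lists were chosen with earlier results of these data known. All 10 were named. Per pathway group, at most the 3 genes past 2-fold with the largest ratio were named, with Cdkn2a, Cdkn2b, Cdkn2c, Cdkn1a, Cdkn1b, Rbl1 and Rbl2. Gene positions came from GENCODE M21 (GRCm38), which matched 31011 of 31053 gene identifiers, and promoter sequences from RefSeq. Markers of oligodendrocytes, neurons, and microglia with blood were read too, and 0 of them were expressed.

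The interval and 2-fold rule were tested on simulated data of PC5 over PC20 with 9951 genes, of which 200 were altered by 4-fold. The counts were Poisson draws from the pooled PC20 profile, which is what the intervals assume. All 200 had the right sign and passed 2-fold, and the intervals held the true value for 98.5% of them and for 95.0% of the others. This checks the code only, since the draws held no spread between cells or cultures. Alternatives covered the cell filter, library size, centring, thinning, averaging over cells, the deepest cells and the marker split. Python 3.11.15, NumPy 2.4.6, SciPy 1.17.1, pandas 2.3.3 and Matplotlib 3.10.9 were used.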

Additional observations from a re-analysis of the deposited data

Results flagged for a closer look

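For Ccnd3 and Rb1 the ratio of cells with over cells without a marker UMI had opposite signs in the libraries, with both intervals clear of 0. The PC5 log2 ratio minus that of PC20 was 0.28 for Ccnd3 and -0.41 for Rb1. The signs were opposite in 12 of 12 alternatives for both genes. For Ccnd3 the PC5 ratio was 0.06, close to the median of all expressed genes in that split, 0.06. When centred on that median it was 0.0064, so Ccnd3 in PC5 hardly differed from other genes. With 1 library per passage the difference was not tested.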

How the results depend on the processing

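No paired analysis was possible because each passage has 1 library, and there was no replicate to leave out. Of the 50 log2 ratios of the 10 genes, 42 had 1 sign and 46 stayed on 1 side of 2-fold in every alternative run, and the 19 past 2-fold all kept their sign. With the split made by Mki67 alone, 0 of the 10 genes passed 2-fold in PC20. With groups ranked by G2/M genes after thinning, 1 gene, Ccne2, was 2-fold higher in the top group of PC5. The share of Ccnd1 in D cyclin UMIs in PC5 was 57.3% as a mean over cells, 57.5% after thinning and 57.8% without the 5% of cells with most UMIs, and in PC20 it was 81.4% without those cells. The share of Cdk4 in the UMIs of Cdk4 and Cdk6 was 93.6% in PC5 after thinning and 86.9% in PC20 as a mean over cells. For each of these the cause was not tested. With expressed genes defined by 1% of cells, 22.3% of genes were 2-fold higher in PC5 and 20.0% in PC20. Ccne1 in PC20 rests on 370 UMIs, and Ccne2 in cells without a marker UMI on 297 in PC5 and 72 in PC20.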
